A study of Homo sapiens with 23 samples.

Results

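The subunit genes of oxidative phosphorylation were followed in MCF10A cells, an immortalised and non-tumorigenic human mammary epithelial line, across cell line and culture. They were chosen by symbol on the array: NDUFA, NDUFB, NDUFC, NDUFS or NDUFV with a number, SDHA to SDHD, and symbols starting UQCR, COX4 to COX8, ATP5F1, ATP5M or ATP5P. This gave 77 of the 18852 genes with a symbol on the array. Of these, 69 were measured well enough to test (a detection p-value under 0.05 on at least 5 arrays), namely 30 of 32 genes of complex I, all 3 of complex II, all 9 of complex III, 10 of 16 of complex IV and all 17 of ATP synthase. The rule used symbols and detection, not differences between groups. SDHB and the 13 subunits encoded in mitochondrial DNA were not analysed here.

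Oxidative phosphorylation makes ATP at the inner mitochondrial membrane. Complex I (NADH dehydrogenase) and complex II (succinate dehydrogenase) pass electrons to ubiquinone, complex III (the cytochrome bc1 complex) passes them to cytochrome c, and complex IV (cytochrome c oxidase) passes them to oxygen. Complexes I, III and IV pump protons, and ATP synthase lets the protons flow back through its membrane part, Fo, to drive ATP production in its matrix part, F1. Most subunits are nuclear genes, as are all members here.

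Total RNA was measured on 23 Illumina bead arrays. The cells labelled WT and the line that the labels name MCF10A/ErbB2* (here ErbB2*) were each grown in 2D and in 3D, with 6 arrays of WT 2D, 5 of WT 3D, 6 of ErbB2* 2D and 6 of ErbB2* 3D. ERBB2 encodes a receptor tyrosine kinase. The labels name no treatment, and they do not describe the ErbB2* construct, whether the line is 1 clone, or the 3D medium. Nothing in them says whether replicates were grown separately, so a p-value here weighs a difference against array-to-array spread that may be technical alone.

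WT 3D replicate 5 stood apart before any comparison. Its title, source and description name WT 3D, and its cell line field names ErbB2*. Its mean signal was 150.6 units with 19.1% of probes detected, against 333.6 to 581.6 units and 30.9% to 34.6% on the other 22 arrays. Of the 69 tested subunit genes, 40 lay above and 22 below all other WT 3D arrays on it, and 21 lay more than 1 log2 unit away. The deposited normalised values ranked the probes exactly as the scanner signals did on 22 arrays (rank correlation 1), and at 0.50 on replicate 5. It was kept by its title, and counts of called genes are given with and without it. All 5 WT 3D arrays, replicate 5 included, read 11.24 to 11.44 log2 units for DCN, 10.81 to 11.21 for KRT14 and 8.42 to 9.97 for CDH1. ErbB2* 3D read 13.14 to 13.37, 8.82 to 9.68 and 6.19 to 6.75, without overlap. Several other markers, among them EPCAM and KRT8, overlapped between these groups. Which label is right was not tested. The WT 2D arrays also fell into 2 sets, replicates 1, 5 and 6 and replicates 2, 3 and 4: deviations from the group mean correlated at 0.12 to 0.24 within the sets and at -0.54 to -0.38 between them across genes, which are not independent replicates. Deviations from a shared mean lean to negative correlations by construction, and the sets were chosen after seeing the data. The ERBB2 probe read 8.50 to 8.90 log2 units in WT 2D and 8.51 to 8.80 in ErbB2* 2D (limma, adjusted p = 0.991), and whether it reads the ErbB2* form is not known, so it does not check the labels. All 3 basal mammary markers measured (KRT5, KRT14 and ITGB4) and 3 of 5 general epithelial markers were detected on every array, with KRT19 on none.

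The start regions of 5 members that rose in 3D culture of WT cells are printed here, chosen after their values were seen. Each window holds the 250 bases before the RefSeq gene's start and the first 50 transcribed bases (GRCh38.p14), 5′ to 3′ along the gene. The windows are chr19:19515975-19516274 on the plus strand for NDUFA13, chr19:1383657-1383956 on the plus strand for NDUFS7, chr3:48609597-48609896 on the minus strand for UQCRC1, chr12:120437863-120438162 on the plus strand for COX6A1 and chr11:118401356-118401655 on the plus strand for ATP5MG. Capitals mark matches to motifs of factors known to act at such genes: CCGGAAG for the ETS family (CTTCCGG on the other strand), GCGC, any 2 bases and GCGC again for NRF1 (nuclear respiratory factor) and AAGATGGC for YY1.
NDUFA13: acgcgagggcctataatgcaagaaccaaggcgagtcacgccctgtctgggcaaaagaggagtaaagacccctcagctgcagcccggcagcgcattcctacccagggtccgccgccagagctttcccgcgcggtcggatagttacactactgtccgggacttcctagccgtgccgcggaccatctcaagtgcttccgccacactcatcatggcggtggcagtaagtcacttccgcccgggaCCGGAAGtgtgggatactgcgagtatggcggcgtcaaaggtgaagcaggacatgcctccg
NDUFS7: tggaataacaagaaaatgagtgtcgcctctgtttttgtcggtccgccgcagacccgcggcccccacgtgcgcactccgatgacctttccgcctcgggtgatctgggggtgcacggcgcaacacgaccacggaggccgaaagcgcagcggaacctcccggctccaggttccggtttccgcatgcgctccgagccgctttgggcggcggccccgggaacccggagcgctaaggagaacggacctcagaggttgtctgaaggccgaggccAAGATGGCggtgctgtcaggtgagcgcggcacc
UQCRC1: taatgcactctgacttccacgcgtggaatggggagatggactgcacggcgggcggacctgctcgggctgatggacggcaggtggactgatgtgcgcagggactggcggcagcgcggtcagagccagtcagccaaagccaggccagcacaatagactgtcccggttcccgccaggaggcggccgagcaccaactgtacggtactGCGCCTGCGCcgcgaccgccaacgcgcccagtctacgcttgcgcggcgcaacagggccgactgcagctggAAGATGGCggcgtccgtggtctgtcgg
COX6A1: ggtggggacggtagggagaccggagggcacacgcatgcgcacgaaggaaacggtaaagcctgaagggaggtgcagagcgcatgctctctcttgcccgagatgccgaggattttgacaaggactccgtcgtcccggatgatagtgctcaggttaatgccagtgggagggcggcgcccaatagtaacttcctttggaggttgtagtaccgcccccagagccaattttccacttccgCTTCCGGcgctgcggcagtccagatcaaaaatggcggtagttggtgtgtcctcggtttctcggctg
ATP5MG: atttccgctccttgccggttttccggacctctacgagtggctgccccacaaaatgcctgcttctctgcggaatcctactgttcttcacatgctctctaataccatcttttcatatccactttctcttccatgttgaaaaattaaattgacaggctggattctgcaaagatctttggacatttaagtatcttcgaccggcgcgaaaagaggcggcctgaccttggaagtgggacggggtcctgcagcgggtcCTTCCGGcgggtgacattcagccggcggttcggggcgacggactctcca
An ETS match began at base -10 of NDUFA13, -16 of COX6A1 and 2 of ATP5MG, counting the first transcribed base as 1 and the base before it as -1. UQCRC1 held an NRF1 match at -47 and a YY1 match at 24, and NDUFS7 a YY1 match at 18. Of the 77 members, 62 had a window in the table. With both strands searched, 17 of 62 (27.4%) held the NRF1 motif, against 8.49% of all 27305 windows, 19 (30.6%) held the ETS motif, against 10.6%, and 10 (16.1%) held the YY1 motif, against 3.00%. At least 1 of the motifs was in 38 of 62 windows (61.3%), against 19.6% of all windows. All windows were counted, not only those of genes on the array or detected here. The share among other well-detected genes was not computed, so the motifs are not shown to be particular to the members. The motifs do not contain one another. In 3D culture of WT cells, 4 of 16 tested members with the NRF1 motif rose and 16 of 40 without it, 6 of 19 with the ETS motif and 14 of 37 without it, and 5 of 10 with the YY1 motif and 15 of 46 without it. The 5 printed windows all hold a motif, but the motifs are not shared by all members that rose. The windows of ATP5MC1, COX5A, NDUFA10, NDUFB2, NDUFB3 and NDUFB11, which also rose in WT cells, hold none of them. A match describes letters only.

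In WT cells, 3D culture came with higher signals of many subunit genes, and none was lower at the threshold. Of the 69 tested members, 27 rose (39.1%) and 0 fell at an adjusted p under 0.05 (limma, Benjamini-Hochberg over 10954 genes), against 14.3% of all genes tested that rose and 15.3% that fell (29.6% together). At an unadjusted p under 0.05, 39 were higher and 1 was lower. Subunit genes had smaller errors than most genes (median SE 0.12 log2 units, against 0.19 for all genes). The 5536 genes detected on all arrays, as were 64 of the 69, were therefore set beside them. Of these 23.5% rose and 13% fell. Their median SE was 0.14, still above that of the subunit genes. Membership required detection on WT 3D replicate 5, where 19.1% of probes were detected, so this set may lean to genes that read high on that array. The median log2 difference, 3D minus 2D, was 0.26 over the members, -0.058 over all genes and 0.083 over the genes detected on all arrays, and 81.2%, 45.1% and 58.4% of them had a positive difference. By complex, 14 of 30 members of complex I rose, 0 of 3 of complex II, 4 of 9 of complex III, 3 of 10 of complex IV and 6 of 17 of ATP synthase. Without WT 3D replicate 5, 31 rose (44.9%) and 1 fell, against 17.1% and 16.6% of all genes (33.7% together) and 22.9% and 17.6% of the genes detected on all arrays, and 21 members were called both ways. The median was then 0.22, against -0.0093 for all genes and 0.035 for the genes detected on all arrays. The count rested on the WT 2D arrays too: with only replicates 1, 5 and 6 in WT 2D, 8 rose (11.6%, against 7.95% of all genes) with a median of 0.21, and with only replicates 2, 3 and 4, 23 rose (33.3%, against 13.8%) with a median of 0.29. With a fit to the WT arrays alone, 11 rose (15.9%, against 8.51%). In RNA of whole cultures a change in the share of some cells and a change in RNA per cell cannot be told apart.

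**Figure D1:**
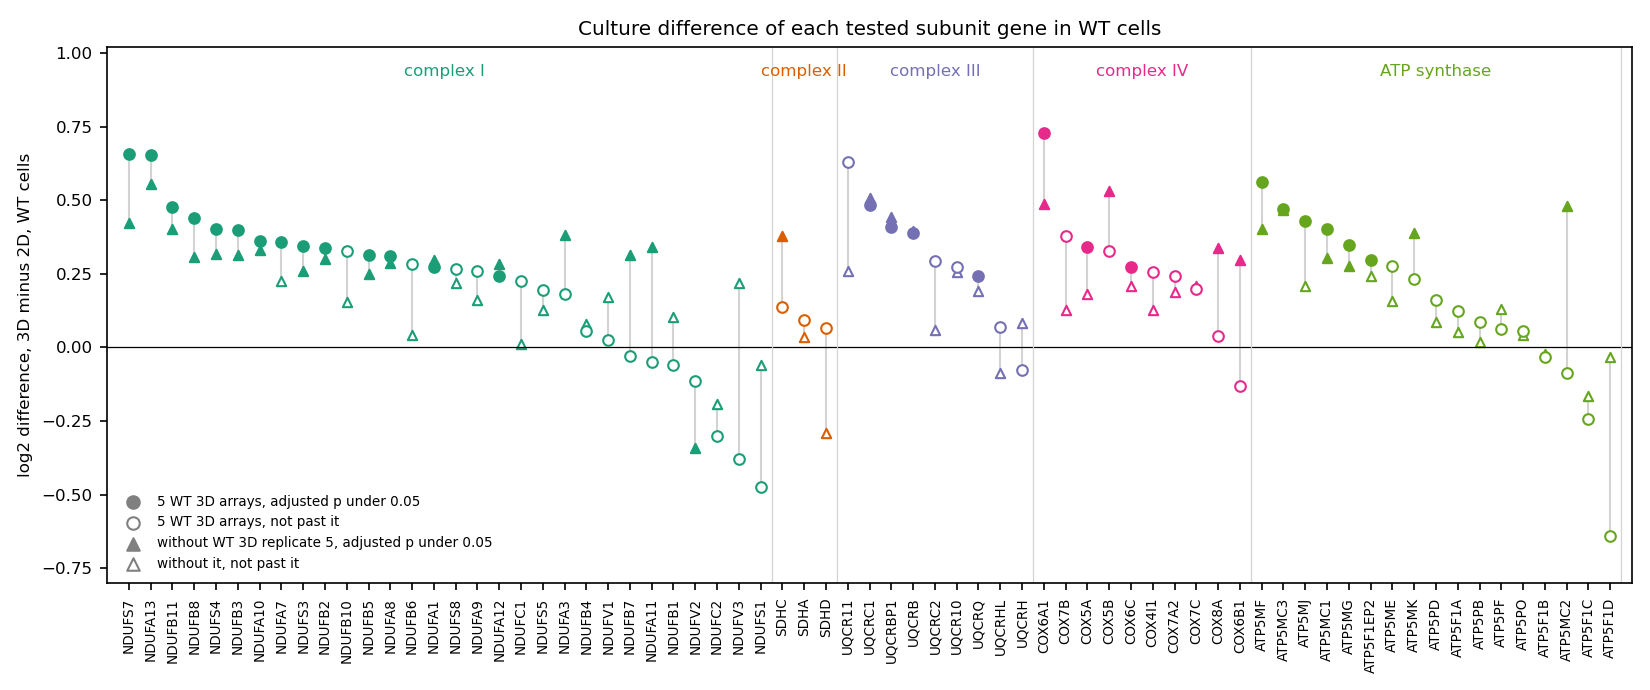
Each column is 1 of the 69 tested subunit genes, ordered by complex, and the vertical axis gives the log2 difference, 3D minus 2D, in WT cells from all arrays (circles) and without WT 3D replicate 5 (triangles), filled where the adjusted p was under 0.05. Filled circles are all above 0, and among filled triangles NDUFV2 alone lies below 0.

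The median over the members of each complex was also taken array by array, relative to the WT 2D mean of each gene. Over all members it ran from -0.054 to 0.060 in WT 2D, was 0.22 to 0.25 on WT 3D replicates 1 to 4 and 0.46 on replicate 5, and ran from 0.062 to 0.15 in ErbB2* 2D and from 0.14 to 0.25 in ErbB2* 3D. The WT 3D arrays lay above all WT 2D arrays with or without replicate 5, whereas ErbB2* 2D and ErbB2* 3D overlapped. The ErbB2* 2D arrays also lay above all WT 2D arrays, the lowest at 0.062 just above the highest WT 2D array at 0.060. Over complex I the WT 3D arrays ran from 0.23 to 0.49, over complex III from 0.11 to 0.38 and over complex IV from 0.24 to 0.49, above every WT 2D array. Over ATP synthase the lowest WT 3D array was at 0.12, just above the highest WT 2D array at 0.11. Complex II, with 3 genes, overlapped between all groups.

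**Figure D2:**
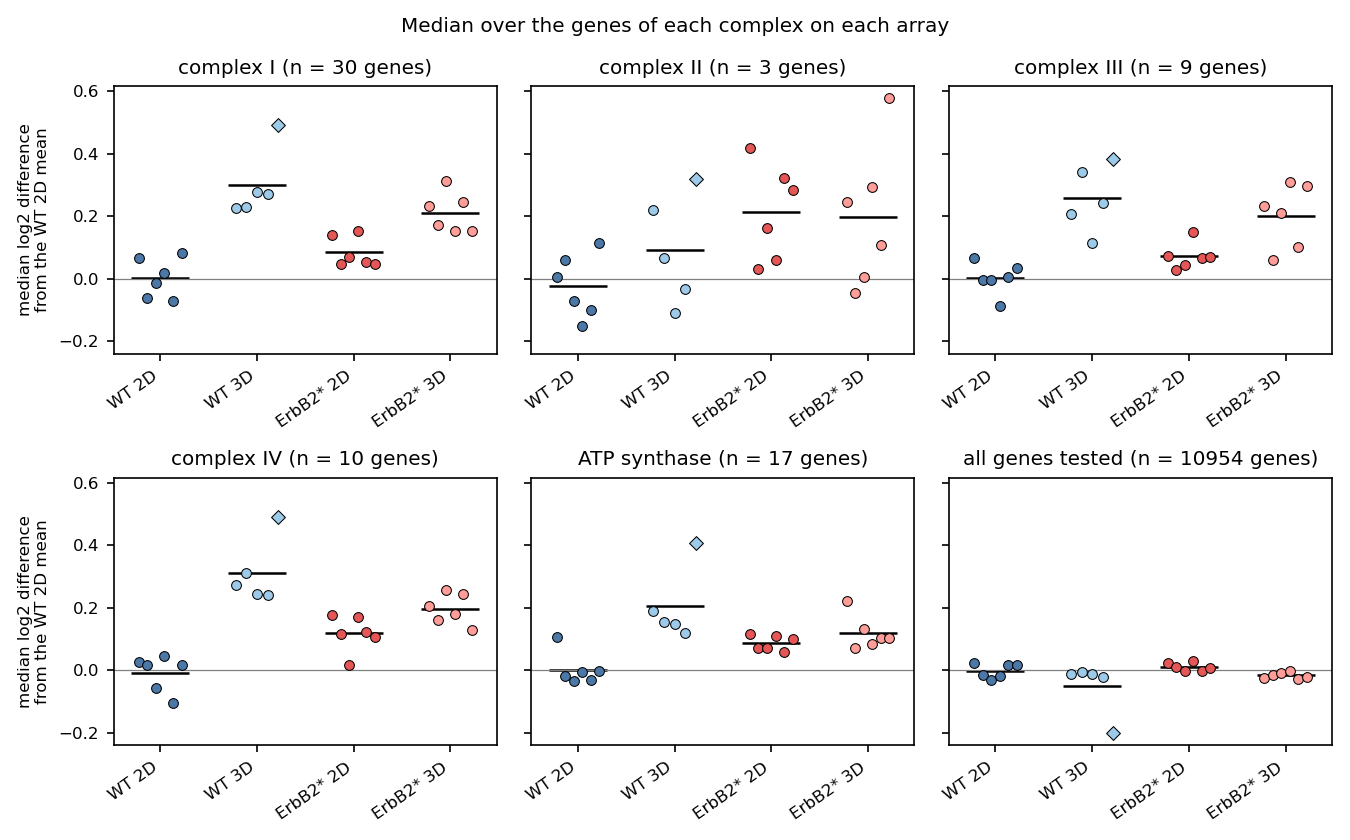
Each point is 1 array, the vertical axis is the median log2 difference from the WT 2D mean over the tested genes of the complex in the panel title, bars are group means, and the diamond is WT 3D replicate 5. For complexes I, III and IV every WT 3D array lies above every WT 2D array, and over all genes tested the groups lie near 0 except for the diamond at -0.20.

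In complex I, 14 of 30 members rose in 3D culture of WT cells. NDUFS7, a core subunit that carries the last iron-sulfur cluster before ubiquinone, ran from 10.77 to 11.17 with a median of 10.86 log2 units in WT 2D and was 11.29, 11.42, 11.35, 11.29 and 12.51 on WT 3D replicates 1 to 5. Every WT 3D array was above the WT 2D arrays, with replicate 5 more than 1 unit above the rest. The difference was 0.66 ± 0.17 (SE; adjusted p = 0.00582), and 0.42 (adjusted p = 0.00391) without replicate 5. NDUFA13 (also known as GRIM-19), an accessory subunit at the foot of the matrix arm, ran from 10.82 to 11.36 with a median of 11.03 in WT 2D and was 11.62, 11.48, 11.71, 11.68 and 12.11 in WT 3D, again without overlap. It differed by 0.65 ± 0.11 (SE; adjusted p = 9.77e-05), and by 0.56 without replicate 5. NDUFS3, a core subunit that binds next to the iron-sulfur subunits, ran from 11.60 to 11.88 with a median of 11.75 in WT 2D and was 11.89, 12.15, 11.96, 12.01 and 12.43 in WT 3D. All WT 3D arrays were the higher ones, and the difference was 0.35 ± 0.10 (SE; adjusted p = 0.0104). Accessory subunits of the membrane arm rose as well, among them NDUFB11 (0.48 ± 0.12), NDUFB8 (0.44 ± 0.12), NDUFB3 (0.40 ± 0.09), NDUFB2 (0.34 ± 0.10) and NDUFB5 (0.31 ± 0.09). The lowest called differences were those of NDUFA1, needed for assembly of the membrane arm, at 0.27 ± 0.08 (SE; adjusted p = 0.0188), and of NDUFA12, an accessory subunit of the matrix arm, at 0.24 ± 0.08 (SE; adjusted p = 0.0287). NDUFA12 lost its call without WT 3D replicate 1 or without replicate 3, at differences of 0.21 and 0.22. It was called in 11 of the 18 alternatives to the main processing. NDUFA10, NDUFA8 and NDUFS4, further accessory subunits, rose by 0.36, 0.31 and 0.40, but the second NDUFA10 probe differed by -0.57 with replicate 5 and by 0.32 without it. NDUFA7 lost its call without replicate 5 (0.23, adjusted p = 0.139) and was called in 8 of the 18 alternatives. NDUFS7 and NDUFS3 were called in 16, but not in a fit to the WT arrays alone or with only WT 2D replicates 1, 5 and 6.

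The catalytic core of complex I did not move as a block. Of its 6 tested subunits, NDUFS7 and NDUFS3 rose. NDUFV1, which binds NADH and flavin, differed by 0.03 (adjusted p = 0.903), or 0.17 without replicate 5, and NDUFS8, another iron-sulfur subunit, by 0.27 (adjusted p = 0.0625). NDUFS1, the largest core subunit, differed by -0.48 ± 0.33 (adjusted p = 0.286) and by -0.06 without replicate 5. NDUFV2, the partner of NDUFV1 in the NADH-binding module, turned on replicate 5: it ran from 11.84 to 12.10 with a median of 12.03 in WT 2D and was 11.61, 11.72, 11.67, 11.67 and 12.82 in WT 3D. Replicates 1 to 4 lay below every WT 2D array and replicate 5 above them, so the difference was -0.11 (adjusted p = 0.619) with it and -0.34 (adjusted p = 0.00521) without it. NDUFA3, NDUFB7 and NDUFA11, accessory subunits of the membrane arm, were called higher when replicate 5 was left out, by 0.38, 0.31 and 0.34, against 0.18, -0.03 and -0.05 with it. Each was called in 4 of the 18 alternatives: those without replicate 5, the deposited normalised values and array weights. The latter alternatives also change how replicate 5 enters, so these calls are not independent of leaving it out. NDUFC2 and NDUFB4 were detected on 15 and 10 of the 23 arrays, and NDUFS6 (2 arrays) and NDUFA5 (0 arrays) were too dim to test.

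Complex II has 4 subunits, of which 3 were tested, and none was called in WT cells. SDHA, the flavoprotein that oxidises succinate, ran from 10.22 to 10.48 with a median of 10.34 in WT 2D and was 10.56, 10.41, 10.24, 10.31 and 10.66 in WT 3D, and the groups overlapped (difference 0.09, adjusted p = 0.543). A second SDHA probe differed by -1.27 with replicate 5 and by -0.19 without it. SDHC, a membrane anchor that helps bind ubiquinone, ran from 10.50 to 10.93 with a median of 10.62 in WT 2D and was 11.24, 11.08, 11.05, 10.85 and 9.84 in WT 3D. Replicate 5 was the lowest array and the others were above all WT 2D arrays except for 1 that lay among them, so the difference was 0.14 (adjusted p = 0.581) with it and 0.38 (adjusted p = 0.0104) without it. The second SDHC probe gave 0.72 and 0.55. SDHD, the other anchor, differed by 0.07 (adjusted p = 0.866) with replicate 5 and by -0.29 (adjusted p = 0.174) without it.

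In complex III, UQCRC1, a core protein on the matrix side, gave the smallest adjusted p of the complex. It ran from 11.35 to 11.66 with a median of 11.56 in WT 2D and was 12.04, 12.04, 11.96, 12.17 and 11.93 in WT 3D, so that every WT 3D array, replicate 5 included, was above every WT 2D array. The difference was 0.48 ± 0.09 (SE; adjusted p = 0.000285), and 0.51 without replicate 5. UQCRB, a small subunit at the ubiquinone site, rose by 0.39 ± 0.11 (SE; adjusted p = 0.00977), its second probe giving 0.57. UQCRQ, a small membrane subunit, rose by 0.24 ± 0.08 (SE; adjusted p = 0.0307), and lost its call without replicate 5 (0.19, adjusted p = 0.0664) and without replicate 3 (0.24, adjusted p = 0.0553). UQCRBP1, a pseudogene symbol whose probe may share sequence with UQCRB, rose by 0.41 and is uncertain as a gene of its own. UQCR10, a small subunit, differed by 0.27 (adjusted p = 0.0709), UQCR11, another, by 0.63 (adjusted p = 0.066), and UQCRC2, the second core protein, by 0.30 (adjusted p = 0.232). Without replicate 5 these were 0.26, 0.26 and 0.06, also with no call. UQCRH, the hinge protein that contacts cytochrome c1, differed by -0.07 and its near-copy UQCRHL by 0.07, and by 0.08 and -0.09 without replicate 5, values that cannot be assigned to either with certainty.

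In complex IV the largest change was that of COX6A1, the widely expressed form of subunit 6A. It ran from 11.42 to 11.70 with a median of 11.52 in WT 2D and was 11.86, 11.96, 12.09, 12.13 and 13.21 in WT 3D. All WT 3D arrays were above all WT 2D arrays, with replicate 5 highest by about 1 unit. The difference was 0.73 ± 0.16 (SE; adjusted p = 0.00183), and 0.49 (adjusted p = 0.000175) without replicate 5. COX5A and COX6C, the latter a membrane subunit, were called at 0.34 and 0.27. Both lost the call without replicate 5, at 0.18 (adjusted p = 0.121) and 0.21 (adjusted p = 0.0669). COX5A was also not called without replicate 3 or replicate 4. COX5B, a zinc-binding subunit, ran from 12.90 to 13.23 with a median of 13.10 in WT 2D and was 13.65, 13.46, 13.73, 13.65 and 12.59 in WT 3D. Replicates 1 to 4 were above every WT 2D array and replicate 5 below them, which gave 0.33 (adjusted p = 0.114) with replicate 5 and 0.53 (adjusted p = 0.000276) without it. COX6B1, which links the units of the dimeric enzyme, had the same pattern, at -0.13 and 0.30. COX8A, at 0.04 with replicate 5, was called without it (0.34). It was called in 4 of the 18 alternatives: those without replicate 5, the deposited values and array weights. COX7C differed by 0.20 ± 0.08 (SE; adjusted p = 0.0577) and was called in 10 of the 18 alternatives, at 0.21 without replicate 5. The isoforms bound to a tissue or to low oxygen were too dim to test: COX4I2 (the form linked to low oxygen), COX6A2 and COX7A1 (heart and muscle), and COX6B2 and COX7B2 (testis) were detected on 0 of 23 arrays, and COX8C on 1.

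In ATP synthase 6 of 17 genes rose, of which 5 encode proteins of the membrane part or bound to it and 1 is a pseudogene symbol of an F1 subunit. ATP5MF, a membrane subunit (subunit f), ran from 12.16 to 12.43 with a median of 12.25 in WT 2D and was 12.59, 12.63, 12.70, 12.82 and 13.47 in WT 3D, without overlap. It differed by 0.56 ± 0.12 (SE; adjusted p = 0.00145) and by 0.40 without replicate 5, and its second probe by 0.47. ATP5MC1 and ATP5MC3, which encode the same mature protein of the rotating c-ring, rose by 0.40 ± 0.12 and 0.47 ± 0.15. ATP5MC3 lost its call without WT 3D replicate 2 (0.40, adjusted p = 0.0561) and was called in 14 of the 18 alternatives. ATP5MC2, the third such gene, was 9.94 on replicate 5 and 12.65 to 12.91 on the other WT 3D arrays, against 12.18 to 12.48 in WT 2D, and differed by -0.09 with replicate 5 and 0.48 (adjusted p = 0.000232) without it. ATP5MG (subunit g) rose by 0.35 ± 0.09, but its second probe differed by 0.19, and by -0.14 without replicate 5. ATP5MJ, a small membrane-bound proteolipid, was called at 0.43 with replicate 5 and not without it (0.21, adjusted p = 0.0821). ATP5F1EP2, a pseudogene symbol of the epsilon subunit, rose by 0.30 and is uncertain, with no call without replicate 5. Of the 4 tested F1 subunits, 0 were called: the alpha subunit ATP5F1A differed by 0.12, the catalytic beta subunit ATP5F1B by -0.03, the gamma shaft ATP5F1C by -0.24 and the delta subunit ATP5F1D by -0.64 (-0.03 without replicate 5). The stalk genes ATP5PB, ATP5PD, ATP5PF and ATP5PO, which hold F1 in place, differed by 0.09, 0.16, 0.06 and 0.06, with no call.

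**Figure D3:**
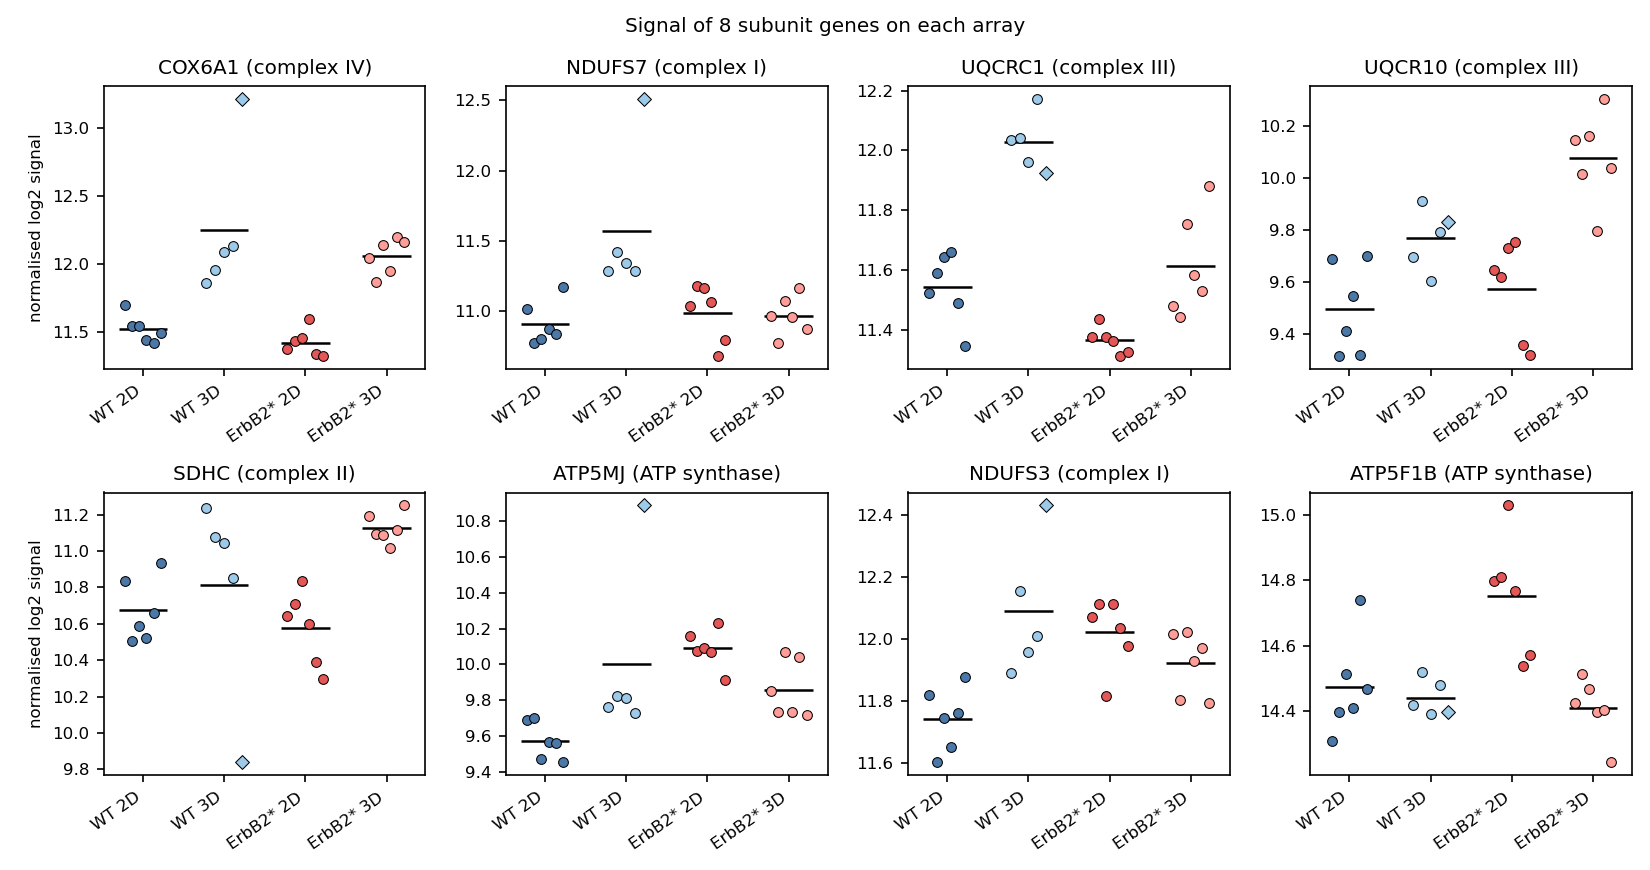
Each panel is 1 gene, each point 1 array, the vertical axis the normalised log2 signal (scales differ between panels and start above 0), bars are group means, and the diamond is WT 3D replicate 5. UQCRC1 has all WT 3D arrays above all WT 2D arrays, and COX6A1 is higher in 3D in both lines, whereas NDUFS7 is higher in WT 3D and overlaps between 2D and 3D in ErbB2*.

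In ErbB2* cells the share of subunit genes that rose in 3D was near that of other well-detected genes. Of 69, 11 rose (15.9%) and 1 fell (1.45%), against 10.3% and 12.1% of all genes tested (22.4% together) and 13.9% and 16% of the genes detected on all arrays. The median difference was 0.11, against -0.020 for all genes, and 69.6% of the members had a positive difference, against 47.6%. The members rose in complex I (3 of 30), complex II (1 of 3), complex III (3 of 9), complex IV (1 of 10) and ATP synthase (3 of 17). Without WT 3D replicate 5, which enters here through the shared estimate of the spread only, 16 rose (23.2%) and 3 fell, against 17.1% and 19.2% of all genes (36.3% together) and 20.4% and 22.4% of the genes detected on all arrays.

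COX6A1 was again the member with the largest difference. It ran from 11.32 to 11.59 with a median of 11.40 in ErbB2* 2D and from 11.87 to 12.20 with a median of 12.09 in ErbB2* 3D, without overlap, and differed by 0.64 ± 0.16 (SE; adjusted p = 0.00383). SDHC ran from 10.30 to 10.84 with a median of 10.62 in 2D and from 11.02 to 11.25 with a median of 11.10 in 3D, also without overlap, and rose by 0.55 ± 0.17 (SE; adjusted p = 0.0202), its second probe giving 0.36. UQCR10 ran from 9.32 to 9.75 with a median of 9.63 in 2D and from 9.80 to 10.30 with a median of 10.09 in 3D. Its 3D arrays were all above its 2D arrays and it rose by 0.51 ± 0.11 (SE; adjusted p = 0.00108), but its other probes differed by -0.016 and 0.092. UQCRB rose by 0.49 ± 0.10 (SE; adjusted p = 0.00124), with a second probe at 0.36, and UQCRC1 by 0.25 ± 0.09 (SE; adjusted p = 0.0407). NDUFB2, an accessory subunit of the membrane arm, ran from 12.24 to 12.65 with a median of 12.59 in 2D and from 12.78 to 13.11 with a median of 12.94 in 3D and rose by 0.44 ± 0.09 (SE; adjusted p = 0.000875). NDUFA13 and NDUFA1 rose by 0.36 and 0.33. In ATP synthase the c-ring gene ATP5MC1 ran from 11.92 to 12.48 with a median of 12.19 in 2D and from 12.53 to 12.85 with a median of 12.65 in 3D, again without overlap. It rose by 0.45 ± 0.11 (SE; adjusted p = 0.00456), and ATP5MG by 0.37 (second probe -0.13). ATP5F1EP2 rose by 0.26 and lost its call without WT 3D replicate 2 (adjusted p = 0.053).

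ATP5F1B, the catalytic subunit of F1, was the member that fell. It ran from 14.54 to 15.03 with a median of 14.78 in ErbB2* 2D and from 14.24 to 14.51 with a median of 14.41 in ErbB2* 3D, where the highest array lay below all 2D arrays. The difference was -0.34 ± 0.09 (SE; adjusted p = 0.00738), and it was not called under median scaling of the arrays (-0.12). ATP5MJ and NDUFC2 joined it without WT 3D replicate 5, at -0.23 (adjusted p = 0.0276) and -0.42 (adjusted p = 0.0409); NDUFC2 was detected on 5 of 6 arrays in 2D and 2 of 6 in 3D. The other tested F1 subunits differed by -0.14 (ATP5F1A), -0.08 (ATP5F1C) and -0.19 (ATP5F1D), with no call. SDHA differed by -0.24 (adjusted p = 0.105) and SDHD by -0.24 (adjusted p = 0.572). In the core of complex I none was called, with differences from -0.17 for NDUFV1 to 0.23 for NDUFS1.

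The genes that rose in both lines numbered 9, which is 33.3% of the 27 of WT cells and 81.8% of the 11 of ErbB2* cells: NDUFA1, NDUFA13, NDUFB2, UQCRB, UQCRC1, COX6A1, ATP5MC1, ATP5MG and ATP5F1EP2. The lines share no arrays in these comparisons, but they share the normalisation and the estimate of the spread. Without WT 3D replicate 5 there were 14, or 45.2% of 31 and 87.5% of 16, with ATP5MF, NDUFA3, NDUFA11, NDUFB3, NDUFB7 and SDHC added and ATP5F1EP2 lost. Across the 69 members, the Pearson correlation of the WT and ErbB2* differences was 0.31, and 0.58 without replicate 5. It is a description over genes of one set of arrays, not over independent replicates. Neither the share of all genes that rose in both lines nor their correlation was computed. The overlap is therefore not shown to be particular to the subunit genes. Under all 18 alternatives, ATP5MF, COX6A1, NDUFA13, NDUFB3, NDUFB11 and UQCRC1 stayed called in WT cells, and ATP5MC1, COX6A1, NDUFA1, NDUFA13, NDUFB2 and UQCRB in ErbB2* cells.

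**Figure D4:**
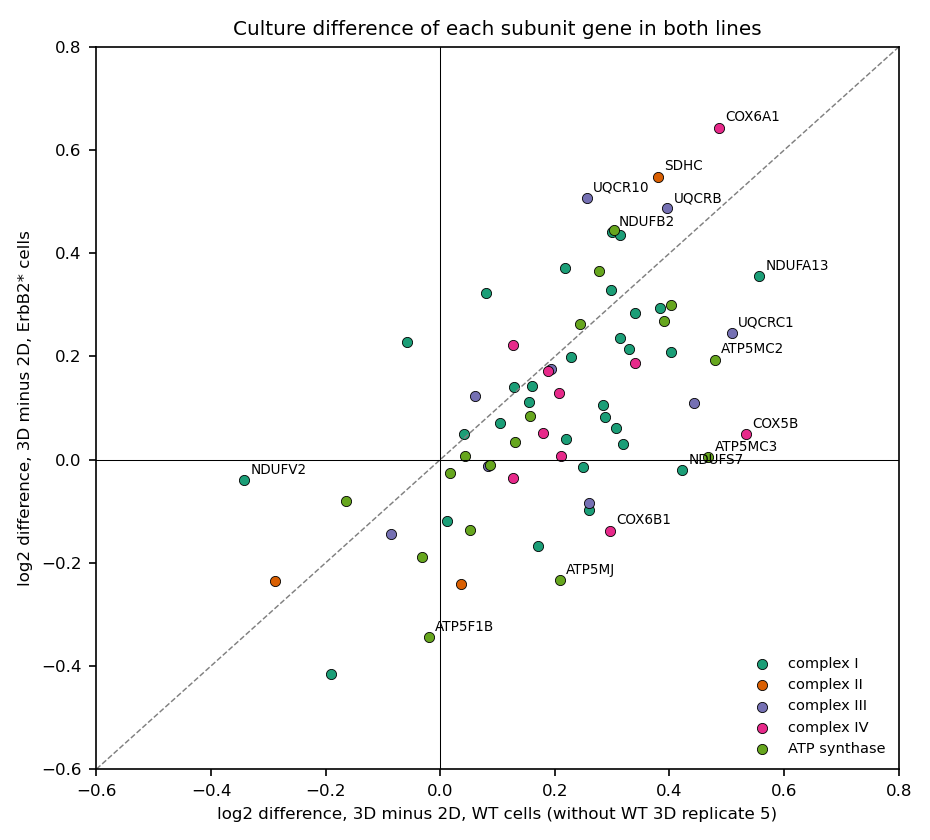
Each point is 1 of the 69 subunit genes, with the log2 difference, 3D minus 2D, in WT cells without replicate 5 on the horizontal axis and in ErbB2* cells on the vertical axis, coloured by complex, and the dashed line marks equal differences. Most points lie right of 0, COX6A1 is highest, and COX5B, COX6B1, NDUFS7 and ATP5MJ lie below the line.

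Between the lines in 2D culture few subunit genes were called, though most leaned higher in ErbB2* cells. Of 69, 3 were higher in ErbB2* cells (4.35%) and 0 lower, against 7.78% and 5.33% of all genes (13.1% together) and 8.91% and 7.24% of the genes detected on all arrays, with a median of 0.088 against 0.012. At an unadjusted p under 0.05, 6 were higher and 0 lower. A positive difference was seen in 78.3% of the members, 51.7% of all genes and 54.7% of the genes detected on all arrays. ATP5MJ ran from 9.45 to 9.70 with a median of 9.56 in WT 2D and from 9.91 to 10.23 with a median of 10.08 in ErbB2* 2D, without overlap, and was higher by 0.52 ± 0.15 (SE; adjusted p = 0.0202), a call lost with either set of WT 2D arrays alone. SDHA ran from 10.22 to 10.48 with a median of 10.34 in WT 2D and from 10.63 to 10.87 with a median of 10.71 in ErbB2* 2D, again without overlap, and was higher by 0.38 ± 0.10 (SE; adjusted p = 0.0149). That call was lost with either set of WT 2D arrays alone and with the mean over probes, the second probe differing by 0.16. ATP5F1B ran from 14.31 to 14.74 with a median of 14.44 and from 14.54 to 15.03 with a median of 14.78, with overlap, and was higher by 0.28 ± 0.09 (SE; adjusted p = 0.0429), a call lost in 7 of the 18 alternatives, among them those without WT 3D replicate 1, 3 or 4, which enter through the shared spread only. Without WT 3D replicate 5, 9 were higher (13%), against 12.7% of all genes (10.5% lower, 23.2% together) and 14.7% of the genes detected on all arrays (11.3% lower), with NDUFB1 (0.40), NDUFV1 (0.29), NDUFS3 (0.28), COX5B (0.28), COX6B1 (0.23) and ATP5MC2 (0.29) added. With only WT 2D replicates 1, 5 and 6, 0 were called (4.27% of all genes higher).

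In 3D culture, 1 of 69 was higher in ErbB2* than in WT cells (1.45%) and 2 were lower (2.9%), against 11.6% and 10.7% of all genes (22.3% together) and 9.25% and 17.4% of the genes detected on all arrays. UQCRC1 was 12.04, 12.04, 11.96, 12.17 and 11.93 in WT 3D and ran from 11.44 to 11.88 with a median of 11.56 in ErbB2* 3D, where the highest array lay below every WT 3D array. It differed by -0.41 ± 0.09 (SE; adjusted p = 0.00149), and by -0.44 without replicate 5. NDUFS7 was 11.29, 11.42, 11.35, 11.29 and 12.51 in WT 3D and ran from 10.77 to 11.17 with a median of 10.96 in ErbB2* 3D, without overlap, at -0.60 ± 0.17 (SE; adjusted p = 0.013) and -0.37 without replicate 5. NDUFB1, a small and dim accessory subunit of complex I, was 5.91, 5.72, 5.92, 6.13 and 5.11 in WT 3D and ran from 6.05 to 6.63 with a median of 6.23 in ErbB2* 3D, with overlap. It was higher by 0.53 ± 0.15 (SE; adjusted p = 0.0126), and not called with the deposited normalised values, under median scaling or in a fit to the 3D arrays alone, where NDUFS7 was not called either. Without replicate 5, NDUFV2 (0.46, adjusted p = 0.000377) and UQCR10 (0.33, adjusted p = 0.0388) were also higher, against 13.7% and 14% of all genes higher and lower (27.7% together) and 13.9% and 18.1% of the genes detected on all arrays.

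The test of whether culture moved the lines differently (the interaction, ErbB2* minus WT) called 2 members lower (2.9%) and 0 higher, against 8.33% and 6.73% of all genes (15.1% together) and 13.5% and 5.98% of the genes detected on all arrays. ATP5MJ was 9.76, 9.82, 9.81, 9.73 and 10.89 in WT 3D and ran from 9.72 to 10.07 with a median of 9.79 in ErbB2* 3D. In WT cells its 3D arrays lay above the 2D arrays, and in ErbB2* cells 4 of 6 lay below every 2D array, giving an interaction of -0.66 ± 0.21 (SE; adjusted p = 0.0391), and -0.44 (adjusted p = 0.0112) without replicate 5. NDUFS3 ran from 11.82 to 12.11 with a median of 12.05 in ErbB2* 2D and from 11.79 to 12.02 with a median of 11.95 in ErbB2* 3D, which overlapped, while WT 3D lay above WT 2D. Its interaction was -0.44 ± 0.13 (SE; adjusted p = 0.0284) and -0.36 without replicate 5. Without replicate 5, NDUFS7 at -0.44 (adjusted p = 0.0312), COX5B at -0.48 (adjusted p = 0.0136) and COX6B1 at -0.43 (adjusted p = 0.0065) were lower as well, 5 in all (7.25%), against 11.8% of all genes (9.76% higher, 21.5% together) and 15.9% of the genes detected on all arrays (9.84% higher). With only WT 2D replicates 1, 5 and 6, 0 were called (4.02% of all genes lower). The median interaction over the members was -0.15, against 0.019 for all genes and -0.11 for the genes detected on all arrays, and -0.095, -0.020 and -0.055 without replicate 5.

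**Figure D5:**
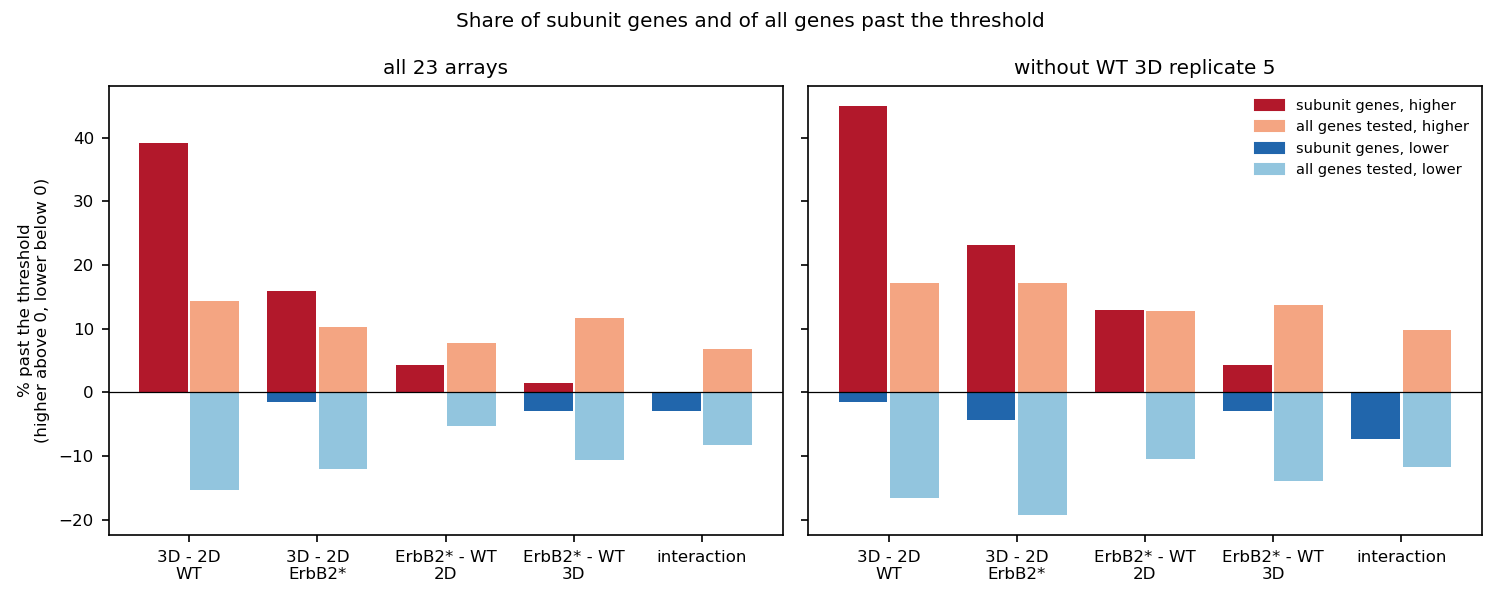
Bars give the percent of the 69 subunit genes (dark) and of all 10954 genes tested (light) past the threshold, higher above 0 and lower below 0, for the 5 comparisons, from all 23 arrays on the left and without WT 3D replicate 5 on the right. The subunit genes stand furthest above the light bar for 3D against 2D in WT cells, at 39.1% against 14.3% and 44.9% against 17.1%. In ErbB2* cells these were 15.9% against 10.3% and 23.2% against 17.1%. Among genes detected on all arrays, not drawn, 23.5% and 22.9% rose in WT cells and 13.9% and 20.4% in ErbB2* cells.

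Genes that build or serve the complexes were counted as well, beside the 14.3% of all genes that rose and 15.3% that fell in 3D culture of WT cells (23.5% and 13% of those detected on all arrays). In WT cells, 3 of 17 tested assembly factors of complex I rose in 3D and 0 fell, led by ACAD9 at 0.57 (adjusted p = 0.00191), and 9 of 32 factors of the other complexes rose and 3 fell. COA6, which helps insert copper into complex IV, rose by 0.89 (adjusted p = 0.00277) and COA8 fell by 0.71 (adjusted p = 0.0281). Of 76 mitochondrial ribosomal proteins, which translate the subunits of mitochondrial DNA, 19 rose and 1 fell, with MRPL53 highest at 0.78 and MRPL39 lowest at -0.56. Of 10 regulators of mitochondrial gene expression 0 rose and 2 fell. These were TFAM, which packages and transcribes mitochondrial DNA (-0.60, adjusted p = 0.000108), and POLRMT, its RNA polymerase (-0.77, adjusted p = 0.00301). Both stayed called without replicate 5. Of 14 genes of the citric acid cycle and pyruvate dehydrogenase, 1 rose (IDH3G, 0.53) and 1 fell (OGDH, -1.31). Of 20 import genes 3 rose and 2 fell, from TIMM8B at 0.86 to TOMM20 at -0.59, and of 12 genes of low oxygen and glycolysis 3 rose and 2 fell, from NDRG1 at 1.48 to BNIP3 at -0.83. Of 7 carriers and related genes, the ATP synthase inhibitor ATP5IF1 rose by 0.49 and the outer membrane channel VDAC1 fell by 0.58, and neither was called without replicate 5, when SLC25A4, an ADP/ATP carrier, was lower by the test (-0.24, adjusted p = 0.0354). Without that array, rises and falls numbered 4 and 1 for complex I assembly, 9 and 6 for the other assembly factors, 16 and 1 for the mitochondrial ribosome, 0 and 2 for the regulators, 1 and 2 for the citric acid cycle, 3 and 2 for import, 0 and 1 for the carriers and 3 and 3 for low oxygen and glycolysis, against 17.1% and 16.6% of all genes.

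In ErbB2* cells the same lists gave 3 rises and 1 fall of 17 (complex I assembly), 4 and 4 of 32 (assembly of the other complexes), 3 and 5 of 76 (mitochondrial ribosome), 0 and 1 of 10 (regulators), 1 and 3 of 14 (citric acid cycle), 1 and 2 of 20 (import), 0 and 1 of 7 (carriers) and 1 and 2 of 12 (low oxygen and glycolysis), against 10.3% and 12.1% of all genes. Without WT 3D replicate 5 they became, in that order, 4 and 2, 8 and 9, 14 and 8, 0 and 1, 1 and 3, 2 and 4, 1 and 1 and 1 and 5, against 17.1% and 19.2% of all genes. TFAM fell here too, by 0.39 (adjusted p = 0.00406), while POLRMT differed by 0.19 (adjusted p = 0.497), and the interaction for POLRMT was 0.96 (adjusted p = 0.0116). COA6 rose by 0.67, and TMEM70, which builds ATP synthase, fell by 0.94 (adjusted p = 0.000335). FOXRED1, an assembly factor of complex I, fell by 0.89 (adjusted p = 0.00117), and SLC25A4 by 0.46 (adjusted p = 0.00524).

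Summed signals of markers of other cell types differed with culture and line, except for the muscle markers. These sums add up single genes and do not measure cell content. Of 5 leukocyte markers, CD14 and CD68 were detected on all arrays and PTPRC on 1, and their summed linear signal was 899 to 1200 in WT 2D, 1400 to 2788 in WT 3D, 2239 to 2917 in ErbB2* 2D and 2052 to 2236 in ErbB2* 3D. Of 5 fibroblast markers, DCN was detected on all arrays and COL1A2 and COL3A1 on none, and the sum was 3313 to 3529, 2582 to 2946, 5477 to 6018 and 9132 to 10717 in the same order. Almost all of it was DCN, at 11.64 to 11.74, 11.24 to 11.44, 12.39 to 12.53 and 13.14 to 13.37 log2 units. COL1A1, COL1A2, COL3A1 and PDGFRB read at most 6.64, 5.01, 4.86 and 5.27 on any array. Of the endothelial markers, VWF and CDH5 were detected on 0 arrays, KDR on 1 and PECAM1 on 22, and the sum was 137 to 229, 111 to 148, 212 to 240 and 172 to 225 in the same order. PECAM1 itself ran from 5.97 to 6.86 log2 units in WT 2D, 5.23 to 6.11 in WT 3D, 7.03 to 7.35 in ErbB2* 2D and 6.57 to 7.16 in ErbB2* 3D. The muscle markers (CKM, TNNT3 and DES on 0 arrays) summed to 124 to 166 over all arrays. The general epithelial markers summed to 2730 to 3177 in WT 2D, 1547 to 1822 in WT 3D, 1654 to 2036 in ErbB2* 2D and 1194 to 1509 in ErbB2* 3D. The basal markers summed to 9350 to 13796, 9333 to 11532, 4217 to 5374 and 5355 to 7635 in that order. Their part in the subunit results was not tested.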

How the data were processed

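Total RNA of 23 samples was labelled with biotin and hybridised to Illumina bead arrays, per the labels' protocols. The authors deposited a scanner table with an intensity and a detection p-value for each of 48803 probes and array, per the file headers, and a table of normalised log2 values, which the authors deposited without stating the method. The 22 arrays other than WT 3D replicate 5 gave a slope of 0.948 to 1.02 between the deposited log2 values and log2 intensity. No read depth exists for arrays, and the number of arrays limits the precision.

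From the intensities and detection p-values, limma 3.58.1 in R 4.3.3 (neqc, offset 16) gave background-corrected, quantile-normalised log2 signals. Of the probes, 28098 had 1 symbol, 13 had several and 20692 had none listed, and only the first were used. Probes with a detection p-value under 0.05 on at least 5 arrays were kept (17689), and the brightest stood for its gene, which left 10954 genes. One linear model of the 4 groups gave the 4 differences and the interaction, two-sided, with Benjamini-Hochberg adjustment over all genes and a threshold of 0.05. The detection p-values deposited by the authors entered the background correction and decided which probes were kept. They tested no difference between groups.

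The members and lists were chosen with earlier results of these data known. Members were named by rule: in each complex the 2 highest and 2 lowest called differences, all of complexes II and III, the core of complex I, F1 and the tissue isoforms. Those called only without replicate 5, those with a disagreeing probe and the 5 printed start regions were named after their values were seen. The fit was tested on simulated data. Alternatives covered the background correction, scaling, the deposited values, the filter, the probe rule, array weights, a replicate block, the groups in the fit and leaving out arrays.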

Additional observations from a re-analysis of the deposited data

Results flagged for a closer look

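WT 3D replicate 5 lay far from the other 4 arrays of its group. Its median over the members, relative to the WT 2D mean, was 0.46 over all members, 0.49 over complex I, 0.49 over complex IV and 0.41 over ATP synthase. Its log2 signals were 10.89 for ATP5MJ, 12.51 for NDUFS7, 13.21 for COX6A1, 13.47 for ATP5MF and 9.84 for SDHC, of which the last lay below the group and the others above it.

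Elsewhere, ErbB2* 2D replicate 4 lay above its group in the median over complex III (0.15), WT 2D replicate 1 in the median over ATP synthase (0.11) and ErbB2* 3D replicate 6 in SDHA (10.94 log2 units). A gap this wide arises by chance in about 1 group in 20.

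The effect of culture differed between the lines for ATP5MJ, with an interaction of -0.66 log2 units, and for NDUFS3, with -0.44. Both were tested by limma, and neither was called when WT 2D held only replicates 1, 5 and 6. ATP5MJ was also not called with WT 2D replicates 2, 3 and 4 alone or with no detection filter, and NDUFS3 not under median scaling or with the replicate block.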

How the results depend on the processing

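Counts of called members (either direction) were 27 for culture in WT cells, 12 for culture in ErbB2* cells, 3 for the lines in 2D, 3 in 3D and 2 for the interaction. Without background correction 6 were called in 3D and 4 for the interaction, and with normexp at an offset of 50, 5 in 3D. All genes then gave 12.3% higher and 11.3% lower in 3D and 7.14% and 8.86% for the interaction without background correction. With normexp they gave 12.2% and 11.1% in 3D. Median scaling moved the WT culture median to 0.38. The deposited log2 values called 44 for culture in WT, 27 in ErbB2*, 11 in 2D, 11 in 3D and 8 for the interaction, and turned UQCRH to 0.17 in WT culture (adjusted p = 0.00845) and to -0.19 for the interaction (adjusted p = 0.0360), and the cause was not tested. Of all genes, these values called 19.1% higher and 18.3% lower for culture in WT, 17.7% and 19.7% in ErbB2*, 13.6% and 11.4% in 2D, 14.9% and 16% in 3D, and 11.1% and 14.1% for the interaction. With no detection filter 1 was called for the interaction, and with a stricter one 6 in 3D. Among all genes, no filter called 3.36% higher and 4.42% lower for the interaction, and the stricter one 13.4% and 12.8% in 3D. Array weights called 9 in 2D, 8 in 3D, 23 for ErbB2* culture and 5 for the interaction, beside 12% higher and 9.67% lower of all genes in 2D, 16% and 16.2% in 3D, 18% and 20.1% for ErbB2* culture and 10.8% and 12.7% for the interaction. With only the groups compared, fewer arrays entered the fit and 7 were called in 2D, 1 in 3D and 11 for WT culture, and no interaction could be fitted. Shares of all genes higher and lower were 11.3% and 8.82% in 2D, 7.29% and 6.81% in 3D, and 8.51% and 7.9% for WT culture. Alternatives chosen after seeing the data were both sets of WT 2D arrays and a new normalisation without WT 3D replicate 5. WT 2D replicates 1, 5 and 6 called 8 for WT culture, 0 in 2D and 0 for the interaction, and replicates 2, 3 and 4 called 5 in 3D. The former set called 7.95% of all genes higher and 9.27% lower for WT culture. In 2D it called 4.27% and 3.53%, and for the interaction 4.2% and 4.02%. The latter set called 11.4% and 10.6% of all genes in 3D. The new normalisation called 9 in 2D, 5 in 3D, 19 for ErbB2* culture and 5 for the interaction. Of all genes it called 12.8% higher and 10.5% lower in 2D, and 13.7% and 14.1% in 3D. It called 17.1% and 19.3% for ErbB2* culture and 9.83% and 11.9% for the interaction.

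Leaving out 1 WT 3D array at a time gave 26 to 32 for WT culture (median 0.22 to 0.28), 11 to 19 for ErbB2* culture, 2 to 9 in 2D, 3 to 5 in 3D (median -0.079 to -0.022) and 2 to 5 for the interaction (median -0.17 to -0.095). The highest counts came without replicate 5, when calls over all genes rose too. These were then 17.1% higher and 16.6% lower for WT culture and 17.1% and 19.2% for ErbB2* culture. They were 12.7% and 10.5% in 2D, 13.7% and 14% in 3D, and 9.76% and 11.8% for the interaction.

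Replicate numbers did not pair the arrays: same-numbered arrays correlated at -0.19 to 0.17 in their deviations, and 3 of 22 correlated best with their own number. With the replicate block 20 were called for WT culture, 10 for ErbB2* culture, 2 in 2D, 4 in 3D and 1 for the interaction. The block called 12.8% of all genes higher and 14.2% lower for WT culture, and 9.74% and 11.3% for ErbB2* culture. It called 7.05% and 4.98% in 2D, 10.8% and 9.49% in 3D, and 6.3% and 6.88% for the interaction.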
